A study of Mus musculus with 8 samples.

Results

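The transcripts of 10 genes of the hypoxia-inducible factor (HIF) pathway were followed across 8 lines of C3H10T1/2 cells, a mouse mesenchymal line from embryos that can form cartilage, bone, fat and muscle cells. The genes were taken by symbol from a table of 31276 genes: the alpha subunit genes Epas1 and Hif1a, the prolyl hydroxylase genes Egln1 and Egln3, and the target genes Vegfa, Slc2a1, Pgk1, Ldha, Pdk1 and Bnip3. All 10 were found, and 9 passed the filter on low values, the exception being Egln3. Each line stably carried a FLAG-HA-tagged histone H3 transgene on top of the cells' own H3 genes, and each gave 1 RNA-seq library from a culture at passage 10 to 15 in medium with serum. The transgenes were H3.3 K36M, H3.1 K36M and H3.3 K36I, then H3.3 K36A, H3.3 K36L, H3.3 K36R and H3.1 K36R, and lastly wild-type H3.3 (WT). In each mutant the lysine at position 36, which cells methylate, is replaced by the residue named. No line without a transgene and no wild-type H3.1 line was analysed here, and oxygen tension is not given in the labels.

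HIF is a transcription factor made of an alpha and a beta subunit. In oxygenated cells, prolyl hydroxylases mark the alpha subunit for destruction through the VHL protein, so HIF activity is set largely at the level of protein, which RNA-seq does not see. When oxygen is low the alpha subunit persists, and HIF turns on genes for glucose uptake, glycolysis, angiogenesis and the removal of mitochondria.

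No transgene had a replicate library, so lines were compared as groups. The 3 lines with K36M or K36I, substitutions known as inhibitors of H3K36 methyltransferases, were set against the other 5, and the 2 H3.1 lines were set against the 6 H3.3 lines with that class held as a term. A replicate is therefore a line with a related transgene, and p-values measure only the spread between these lines, part of which may be technical. Values are given as normalised reads, which are reads scaled by the size factor of their library, and differences are on the deposited log2 scale, where differences of genes with few reads are compressed. Depth was 45448249 reads for the H3.1 K36M line and 53199065 for the H3.1 K36R line, and lay between 61139941 and 68020958 in the H3.3 lines. Reads of 45S ribosomal RNA made up 1.66% to 5.24% of a library, with the highest share in H3.3 K36A. Of 8 mesenchymal markers all passed the filter, whereas of 6 leukocyte and 6 epithelial markers 1 and 2 did. In the K36M and K36I lines the summed mesenchymal markers were at 430896 to 507466 normalised reads. In the other 5 they were at 560427 to 706481. Between the classes 1 of the 8, Twist1, rose (0.47, limma adjusted p = 0.0189) and 0 fell, beside 13.3% called over all genes. By limma-voom 1 of the 8 rose and 1 fell. Col1a2 had 126823 to 184387 normalised reads in the K36M and K36I lines and 190598 to 294151 in the other 5. Its classes did not overlap, as in 11.5% of genes tested for lower values in K36M and K36I. By limma it was lower and did not pass (class difference -0.68, limma adjusted p = 0.0521). Endothelial markers are given beside Epas1. The summed epithelial markers were at 724 to 1757 normalised reads in the K36M and K36I lines and 563 to 7854 in the other 5, with Epcam at 2.19 at most and Krt14 up to 7403 (H3.3 K36L). The epithelial cadherin gene Cdh1 had 702 in H3.3 K36M, 1065 in H3.3 K36I and 687 in H3.1 K36M, against 292 to 787 in the other 5, and did not pass (class difference 0.69, limma adjusted p = 0.120). Krt14, the other epithelial marker tested, had 67.8 in H3.3 K36M, 612.5 in H3.3 K36I and 18.4 in H3.1 K36M. The other 5 lines had 31.7 to 7403, and Krt14 did not pass (class difference -2.37, limma adjusted p = 0.234). The summed leukocyte markers were at 209 to 282 normalised reads in the K36M and K36I lines and 141 to 179 in the other 5. The macrophage gene Cd68 among them had 161 in H3.3 K36M, 241 in H3.3 K36I and 160.3 in H3.1 K36M, against 101 to 149. Its classes did not overlap, as in 10.0% of genes tested for higher values in K36M and K36I. Cd68 did not pass (class difference 0.41, limma adjusted p = 0.0698). By histone, 1 of the 8 mesenchymal markers, Pdgfra, rose (0.84, limma adjusted p = 0.00515) and 0 fell, beside 11.0% called over all genes. Pdgfra had 10213 to 16396 normalised reads in the H3.1 lines and 6275 to 8570 in the H3.3 lines. The summed epithelial markers were at 563 to 724 in the H3.1 lines and 820 to 7854 in the H3.3 lines. Krt14 did not pass (histone difference -3.02, limma adjusted p = 0.0662). The mesenchymal and leukocyte sums overlapped by histone. The part of these markers in the results was not tested.

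Epas1, which encodes HIF-2alpha, was almost absent from the K36M and K36I lines and present in every other line. Hif1a, which encodes HIF-1alpha, was abundant in all 8 lines and passed the test between the histones and not that between the classes. Of the targets, Vegfa was higher in the K36M and K36I lines, and Bnip3, Pdk1 and Pgk1 were higher in the H3.1 lines, although the Pdk1 and Pgk1 calls were lost in most other settings. Slc2a1, Ldha and the hydroxylase gene Egln1 passed neither test.

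**Figure D1:**
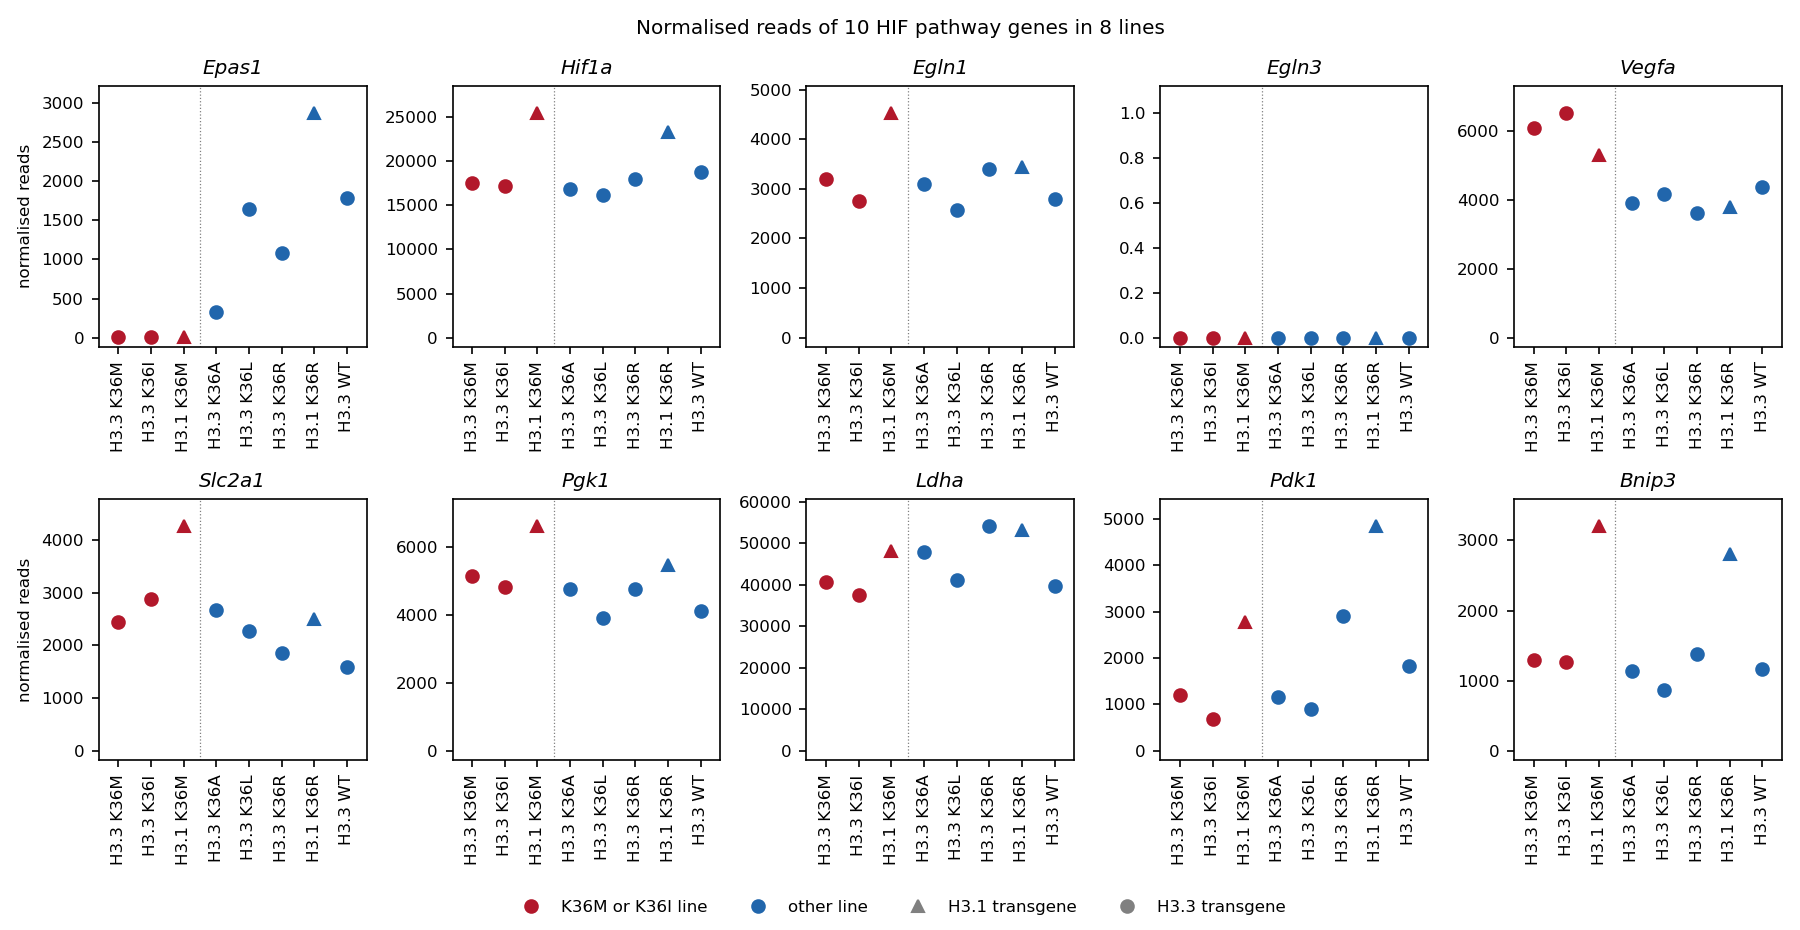
Normalised reads (vertical axis, linear, each panel with its own scale) of the 10 genes in the 8 lines (horizontal axis), 1 point per library, red for K36M or K36I and blue for the others, triangles for H3.1 and circles for H3.3. Epas1 lies between 8.59 and 13.1 in the red lines and at 329 or more in the blue, Bnip3 is highest in both triangles, and Egln3 is at 0 throughout.

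Set per length of exon, to allow levels of different genes to be compared, the lactate dehydrogenase gene Ldha was the most abundant, with a median over the 8 lines of 13444 normalised reads per kb. Hif1a (3016), the glycolytic kinase gene Pgk1 (2140.0), Vegfa (999), Egln1 (878), Slc2a1 (705) and Bnip3 (564) followed in median normalised reads per kb. Pdk1 (195) and Epas1 (126) were the lowest of the 9 genes with reads. The range over lines was 2739.5 to 4326 reads per kb for Hif1a and 1.54 to 514 for Epas1. GENCODE M21 lists 2 pseudogenes named after Ldha and 2 after Pgk1, and how the counting treated reads that match such copies is not stated.

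Epas1 (GRCm38, chr17:86753700-86833410, plus strand) had 8.59 in H3.3 K36M, 11.9 in H3.3 K36I and 13.1 in H3.1 K36M, in normalised reads. It had 329 in H3.3 K36A, 1647 in H3.3 K36L, 1077 in H3.3 K36R, 2875 in H3.1 K36R and 1788 in H3.3 WT. The classes did not overlap, as in 11.5% of genes tested for lower values in K36M and K36I, and H3.3 K36A was the lowest of the other 5 lines. Before scaling, the 3 low values stood for 9, 14 and 10 reads, above the limit of 3 reads that a count of 0 allows. The means were 11.2 ± 2.36 (SD, n = 3) in the K36M and K36I lines and 1543 ± 941 normalised reads (SD, n = 5) in the other 5, the mean of the others being 138 times as high.

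Epas1 fell by 3.89 on the log2 scale in the K36M and K36I lines (SE 0.52, limma adjusted p = 0.00237). Across 15 other settings the difference lay between -6.75 and -3.62. The gene passed the filter only through the lines in which it is high, since its mean in the K36M and K36I lines is below the filter level of 31.0 normalised reads. Its adjusted p is therefore not taken as support, and the result rests on the values by line. Its histone difference was 0.78 (SE 0.55, limma adjusted p = 0.366). In bulk RNA, fewer cells with the transcript and less of it per cell cannot be told apart.

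Set against H3.3 WT with 1 library a side and no test, Epas1 differed by -4.41 in H3.3 K36M, -4.32 in H3.3 K36I and -4.29 in H3.1 K36M. It differed by -2.11 in H3.3 K36A, -0.67 in H3.3 K36R, -0.11 in H3.3 K36L and 0.65 in H3.1 K36R. A difference of at least 1 downward was seen in 4.41% of the 14215 genes tested for H3.3 K36M, 4.23% for H3.1 K36M, 4.17% for H3.3 K36I and 1.32% for H3.3 K36A. By level, the M and I lines were lowest, H3.3 K36A came next, and the R, L and WT lines were highest. With 1 library each, no spread is known by which neighbours in that order could be told apart.

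Epas1 is also known from endothelial cells, so their markers were read beside it. The summed level of 6 endothelial markers (Pecam1, Cdh5, Tie1, Emcn, Erg and Esam) was 23.7 to 44.9 normalised reads in the K36M and K36I lines and 210.5 to 667 in the other 5. In the other 5 lines most of it was Erg, which encodes an ETS factor. Erg had 0 in H3.3 K36M, 3.40 in H3.3 K36I and 0 in H3.1 K36M, against 114 to 613 normalised reads in the other 5. It was the only marker of the 6 past the filter, and it passed through the lines in which it is high, so no test is given. The highest level in any line was 54.6 normalised reads for Cdh5, 20.5 for Pecam1, 19.9 for Esam, 5.85 for Tie1 and 2.19 for Emcn. Cdh5 had 33.4 in H3.3 K36M, 22.1 in H3.3 K36I and 2.63 in H3.1 K36M, against 17.5 to 54.6 normalised reads in the other 5. The part of Erg or of the other markers in the Epas1 result was not tested.

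The 5 named genes whose pattern over the 8 libraries was most like that of Epas1, by Pearson r on the deposited scale among 11996 other genes, were Pqbp1 (0.994), Manea (0.983), Zbtb20 (0.982), Exosc9 (0.981) and Ap5s1 (0.980). These correlations are a description over 8 libraries from 1 scaled table. Zbtb20, a zinc finger repressor, had 381 to 502 normalised reads in the K36M and K36I lines and 761 to 1224 in the other 5. Pqbp1 had 2132 to 2164 normalised reads in the K36M and K36I lines and 2284 to 2549.7 in the other 5.

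Hif1a (GRCm38, chr12:73901375-73947530, plus strand) had 17596 in H3.3 K36M, 17195 in H3.3 K36I and 25504 in H3.1 K36M, in normalised reads. It had 16816 in H3.3 K36A, 16152 in H3.3 K36L, 17968 in H3.3 K36R, 23336 in H3.1 K36R and 18792 in H3.3 WT. The H3.1 lines were the highest of the 8, a separation seen in 10.4% of genes tested, and the classes overlapped. Its class difference was 0.10 (SE 0.16, 95% interval -0.27 to 0.46, limma adjusted p = 0.750), and it was -0.08 without H3.1 K36M.

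In the H3.1 lines Hif1a rose by 0.48 (SE 0.08, limma adjusted p = 0.0130). The call was lost without H3.1 K36M (adjusted p = 0.110) and in the 4 K36M and K36R libraries alone (adjusted p = 0.361). Its exons share 478 bases with 2 other annotated genes, 1 of them antisense, and the strand setting of the counting is not given. Epas1 made up 0.0515% of the summed Epas1 and Hif1a reads per kb in H3.3 K36M, 0.0730% in H3.3 K36I and 0.0543% in H3.1 K36M. Its share was 2.02% in H3.3 K36A, 5.95% in H3.3 K36R, 9.71% in H3.3 K36L, 11.5% in H3.1 K36R and 9.12% in H3.3 WT. Hif1a was thus the more abundant alpha transcript per length in all 8 lines.

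**Figure D2:**
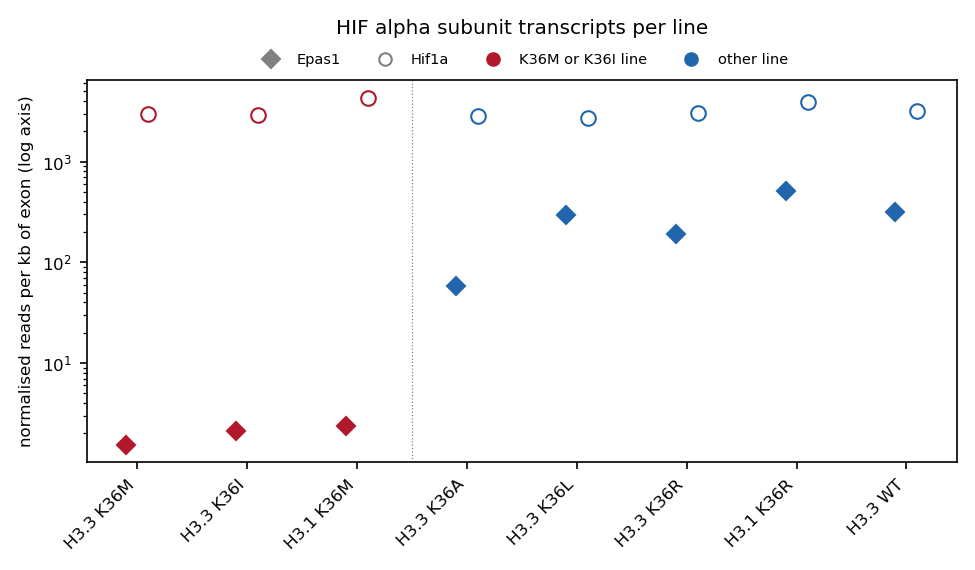
Normalised reads per kb of exon (vertical axis, log scale) of Epas1 (filled diamonds) and Hif1a (open circles) in each line (horizontal axis), red for K36M or K36I and blue for the others. Hif1a stays between 2739.5 and 4326 reads per kb, while Epas1 reaches at most 2.35 in the red lines and lies at 58.8 or more in the blue.

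Of the hydroxylases, Egln1 encodes PHD2, the main oxygen sensor among them, and Egln3 encodes PHD3, itself a HIF target. Egln1 (GRCm38, chr8:124908587-124949324, minus strand) had, in normalised reads, 3204 in H3.3 K36M, 2749 in H3.3 K36I and 4534 in H3.1 K36M, against 3110.1 in H3.3 K36A, 2581 in H3.3 K36L, 3413 in H3.3 K36R, 3445 in H3.1 K36R and 2792 in H3.3 WT. H3.1 K36M stood highest and the classes overlapped. The class difference was 0.16 (SE 0.16, limma adjusted p = 0.581). The histone difference was 0.38 (SE 0.13, limma adjusted p = 0.0931), with both H3.1 lines above all H3.3 lines, as in 10.4% of genes tested. Without H3.3 K36R it passed (adjusted p = 0.0498).

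Egln3 (GRCm38, chr12:54178981-54203860, minus strand) had 0 reads in all 8 libraries. The limit that 0 reads allows is 3 reads, or 2.55 to 3.94 normalised reads depending on the library, and covers counting error only. Vhl, whose product recognises hydroxylated HIF, had 2083 in H3.3 K36M, 2074 in H3.3 K36I and 1952 in H3.1 K36M against 1828 to 2323 normalised reads in the other 5 lines. Its class difference was 0.03 (95% interval -0.17 to 0.22). Of 10 machinery genes 8 were tested, and Epas1 alone passed between the classes, beside 13.3% called over all genes. Between the histones, Hif1a and Arnt2, which encodes a beta subunit, rose (Arnt2 by 1.61, SE 0.36, limma adjusted p = 0.0314). These were 2 of the 8 tested, beside 11.0% called between the histones over all genes. Arnt2 had 669 normalised reads in the H3.1 K36M line and 482 in the H3.1 K36R line, against 62.3 to 323 in the 6 H3.3 lines, and its call was lost when any of 5 single libraries was left out.

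Among the targets, Vegfa encodes the main angiogenic growth factor. Vegfa (GRCm38, chr17:46016993-46032369, minus strand) had, in normalised reads, 6095 in H3.3 K36M, 6532 in H3.3 K36I and 5320.3 in H3.1 K36M, against 3903 in H3.3 K36A, 4176 in H3.3 K36L, 3614 in H3.3 K36R, 3786 in H3.1 K36R and 4384 in H3.3 WT. All 3 K36M and K36I lines lay above all other lines, as in 10.0% of genes tested. The means were 5982 ± 614 (SD, n = 3) in the K36M and K36I lines and 3973 ± 308 normalised reads (SD, n = 5) in the other 5. Vegfa rose by 0.57 (SE 0.09, limma adjusted p = 0.00507), and it passed in all 15 other settings, with differences of 0.51 to 0.65 and adjusted p of 0.000767 to 0.0263. Its histone difference was -0.15 (SE 0.09, limma adjusted p = 0.278).

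Bnip3, whose product sits on the outer mitochondrial membrane and promotes mitophagy, separated the histones. Bnip3 (GRCm38, chr7:138890836-138909519, minus strand) had 3202 normalised reads in the H3.1 K36M line and 2807 in the H3.1 K36R line. In the H3.3 lines it had 1289 in K36M, 1267 in K36I, 1139 in K36A, 870.1 in K36L, 1379.7 in K36R and 1163 normalised reads in WT. The 2 H3.1 lines lay above all 6, as in 10.4% of genes tested, with a mean ratio of 2.54.

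Bnip3 rose by 1.24 in the H3.1 lines (SE 0.14, limma adjusted p = 0.00379) and kept its call without any single library. In the 4 K36M and K36R libraries alone it differed by 1.10 (limma adjusted p = 0.119). Between the classes it differed by 0.34 (SE 0.39, limma adjusted p = 0.634). Its exons share 504 bases with an antisense gene. Its relative Bnip3l had 6855 normalised reads in the H3.1 K36M line and 6583 in the H3.1 K36R line, against 5506 to 6577 in the 6 H3.3 lines, with a histone difference of 0.17 (SE 0.06, limma adjusted p = 0.124).

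Pdk1 encodes a kinase that inhibits pyruvate dehydrogenase and so limits the oxidation of pyruvate in mitochondria. Pdk1 (GRCm38, chr2:71873224-71903858, plus strand) had 2776 normalised reads in the H3.1 K36M line and 4847 in the H3.1 K36R line. In the H3.3 lines it had 1201 in K36M, 689 in K36I, 1154 in K36A, 911 in K36L, 2907 in K36R and 1826 normalised reads in WT. The histones overlapped, since H3.3 K36R lay above H3.1 K36M. K36M was below K36R in both histones, by 1.20 in H3.3 and 0.78 in H3.1 on the log2 scale, with 1 library a side and no test.

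Pdk1 rose by 1.53 in the H3.1 lines (SE 0.38, limma adjusted p = 0.0434), but the call was lost without any 1 library except H3.3 K36R, with adjusted p up to 0.195. Between the classes it differed by -0.51 (SE 0.57, limma adjusted p = 0.615).

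Slc2a1 encodes the glucose transporter GLUT1. Slc2a1 (GRCm38, chr4:119108711-119137983, plus strand) had, in normalised reads, 2452 in H3.3 K36M, 2886 in H3.3 K36I and 4259.6 in H3.1 K36M, against 2677 in H3.3 K36A, 2267 in H3.3 K36L, 1847 in H3.3 K36R, 2491 in H3.1 K36R and 1584 in H3.3 WT. H3.1 K36M was the highest line and H3.3 WT the lowest, and the classes overlapped. Neither difference passed: 0.52 between the classes (SE 0.21, limma adjusted p = 0.146) and 0.44 between the histones (SE 0.19, limma adjusted p = 0.159). Its exons share 105 bases with an antisense gene.

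The glycolytic members varied little. Pgk1 (GRCm38, chrX:106187100-106203699, plus strand) had, in normalised reads, 5162 in H3.3 K36M, 4835 in H3.3 K36I and 6619 in H3.1 K36M, against 4769 in H3.3 K36A, 3927 in H3.3 K36L, 4764 in H3.3 K36R, 5486 in H3.1 K36R and 4106 in H3.3 WT. It rose by 0.35 in the H3.1 lines (SE 0.09, limma adjusted p = 0.0484), a call that failed in 11 of 13 other settings (adjusted p of 0.0381 to 0.444 over all of them). Its class difference was 0.26 (SE 0.13, limma adjusted p = 0.258).

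Ldha (GRCm38, chr7:46841475-46855627, plus strand), which turns pyruvate into lactate, had, in normalised reads, 40785 in H3.3 K36M, 37629.7 in H3.3 K36I and 48022 in H3.1 K36M, against 47891 in H3.3 K36A, 41108 in H3.3 K36L, 54114 in H3.3 K36R, 53086 in H3.1 K36R and 39803 in H3.3 WT. The K36R lines were the highest in each histone, and both groupings overlapped. The class difference was -0.16 (95% interval -0.47 to 0.15, limma adjusted p = 0.499) and the histone difference 0.26 (95% interval -0.03 to 0.55, limma adjusted p = 0.211).

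**Figure D3:**
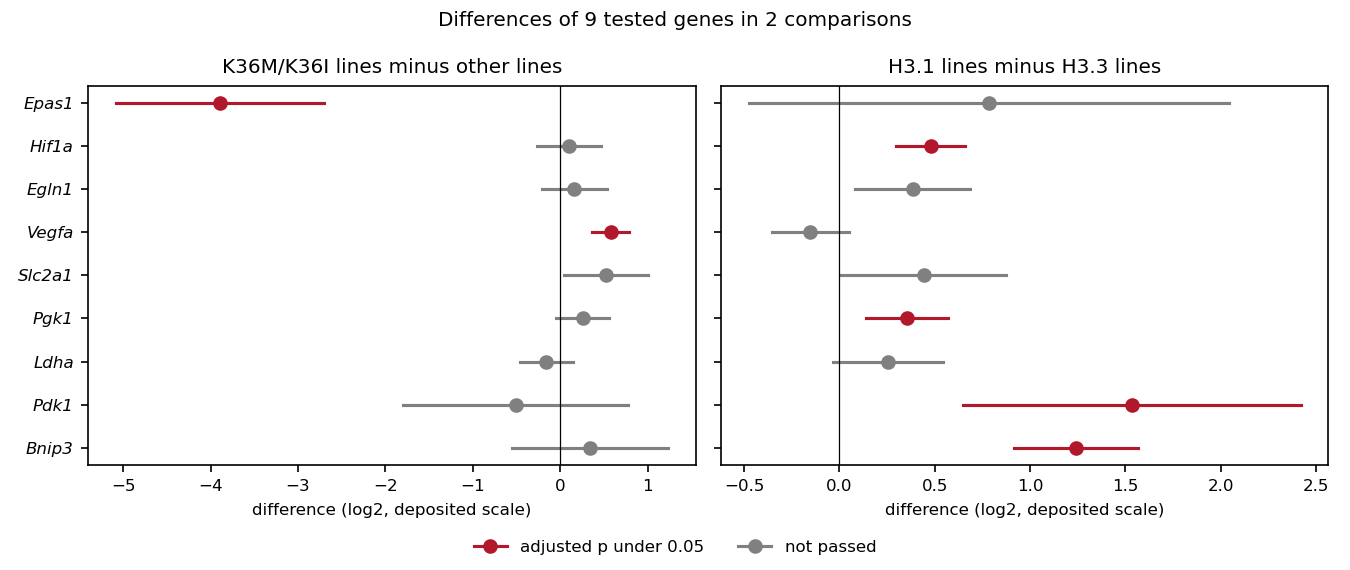
Log2 differences with 95% intervals (horizontal axis) of the 9 tested genes (vertical axis), K36M and K36I lines minus the other lines on the left and H3.1 minus H3.3 lines on the right, red where limma's adjusted p was under 0.05. Epas1 and Vegfa are red on the left, and Hif1a, Pgk1, Pdk1 and Bnip3 on the right.

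Counted together, 1 of the 9 tested genes rose and 1 fell between the classes, where 13.3% of all 14215 genes tested were called, 917 (6.45%) higher and 970 (6.82%) lower. With library medians set equal the split over all genes was 1156 higher and 805 lower (58.9% higher, against 48.6% as deposited). The count over all genes was 1887, and it was 1021 without H3.3 K36M, 1245 without H3.3 K36I and 1211 without H3.3 WT. It was 2959 with histone as a covariate and 4074 with array weights. By limma, between the histones 4 of the 9 rose and 0 fell (6 higher and 0 lower at unadjusted p under 0.05, and 3 and 0 called by limma-voom), where 11.0% of all genes tested were called, 803 (5.65%) higher and 764 (5.37%) lower. The median difference of the 9 genes was 0.16 between the classes and 0.44 between the histones, beside -0.01 and 0.00016 over all genes tested.

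Each mutant was also set against H3.3 WT, 1 library a side with no test, and counted where the difference was at least 1 on the log2 scale. The differences of Epas1 are given above. Of the other genes, Slc2a1 (1.36) and Bnip3 (1.37) were higher by at least 1 in the H3.1 K36M line, as were 6.08% of all genes tested. In the H3.1 K36R line Pdk1 (1.35) and Bnip3 (1.19) were, beside 2.08% of genes higher and 1.25% lower. Pdk1 was lower in H3.3 K36I (-1.27). None of the 9 genes was higher by 1 in H3.3 K36M (4.28% of genes were), H3.3 K36I (3.45%) or H3.3 K36A (0.760%). None of the 9 differed by 1 either way in H3.3 K36L, where 0.521% of genes were higher and 0.507% lower, or in H3.3 K36R, where 1.06% were higher and 0.696% lower. All 7 differences share the 1 WT library.

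K36M and K36R can be set side by side within each histone, again with 1 library a side. In H3.3, Epas1 (-3.74) and Pdk1 (-1.20) were lower by at least 1 in K36M, as were 4.45% of genes, while 3.40% were higher. In H3.1, Epas1 alone was lower by that much in K36M (-4.94), where 3.12% of genes were lower and 3.90% higher. Vegfa differed by 0.73 in H3.3 and 0.48 in H3.1, and Slc2a1 by 0.39 and 0.75.

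The histone count over all genes was 1567, and it was 183 without H3.1 K36M, 574 without H3.3 K36I, 769 without H3.3 K36M, 791 without H3.3 WT and 836 without H3.3 K36L. The H3.1 libraries were also the shallowest 2, and the part of depth in these differences was not tested. Anything else that the pair of H3.1 lines shares cannot be told apart from the histone. A test of whether the class difference itself differed between H3.1 and H3.3 called 0 of 14215 genes by limma (1582 genes, and 0 of the 9, at unadjusted p under 0.05) and 0 by limma-voom, with 1 library per H3.1 arm. For Epas1 that difference was -1.30 (95% interval -3.83 to 1.24).

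The promoters of the 10 genes were read for the core of the hypoxia response element, the sequence HIF is known to bind. Windows of 300 bases, 250 before and 50 after the start in RefSeq on GRCm38.p6, were found for 9 of the 10 genes, with 12 windows in all, and Epas1 was not among them. The motifs searched were ACGTG and GCGTG on both strands, and the palindrome CACGTG counts as a match on each strand. At least 1 match was present in 10 of the 12 windows, and in 43.8% of 32851 windows of all genes. ACGTG alone was in 8 of the 12 and in 19.6% of all windows. The windows below are those of the targets called in either comparison and of Ldha, which had the most matches, with matches in capitals, 5′ to 3′ on the gene's strand.
Bnip3 (chr7:138909457-138909756, minus strand): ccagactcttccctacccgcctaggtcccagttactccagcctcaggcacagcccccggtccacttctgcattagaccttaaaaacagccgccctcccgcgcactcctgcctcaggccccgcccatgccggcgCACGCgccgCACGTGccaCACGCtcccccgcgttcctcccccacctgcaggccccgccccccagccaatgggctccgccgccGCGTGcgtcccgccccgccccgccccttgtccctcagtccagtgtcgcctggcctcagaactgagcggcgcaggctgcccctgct
Pdk1 (chr2:71872974-71873273, plus strand): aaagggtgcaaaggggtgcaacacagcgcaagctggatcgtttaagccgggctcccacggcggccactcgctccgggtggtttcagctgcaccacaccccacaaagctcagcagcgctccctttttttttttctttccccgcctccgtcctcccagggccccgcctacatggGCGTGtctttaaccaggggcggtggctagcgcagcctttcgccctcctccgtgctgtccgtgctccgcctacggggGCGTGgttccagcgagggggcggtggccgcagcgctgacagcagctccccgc
Pgk1 (chrX:106186850-106187149, plus strand): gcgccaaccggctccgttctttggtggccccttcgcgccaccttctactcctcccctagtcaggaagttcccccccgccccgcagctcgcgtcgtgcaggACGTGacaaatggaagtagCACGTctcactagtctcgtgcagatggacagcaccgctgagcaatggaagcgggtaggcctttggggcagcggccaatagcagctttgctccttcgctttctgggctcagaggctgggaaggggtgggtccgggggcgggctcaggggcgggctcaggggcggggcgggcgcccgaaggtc
Vegfa (chr17:46032328-46032627, minus strand): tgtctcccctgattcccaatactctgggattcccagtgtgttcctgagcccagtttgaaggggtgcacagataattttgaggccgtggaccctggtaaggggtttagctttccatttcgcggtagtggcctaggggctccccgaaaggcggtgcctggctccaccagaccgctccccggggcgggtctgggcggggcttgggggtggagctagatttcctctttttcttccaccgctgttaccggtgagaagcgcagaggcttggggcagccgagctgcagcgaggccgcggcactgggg
Ldha (chr7:46845554-46845853, plus strand): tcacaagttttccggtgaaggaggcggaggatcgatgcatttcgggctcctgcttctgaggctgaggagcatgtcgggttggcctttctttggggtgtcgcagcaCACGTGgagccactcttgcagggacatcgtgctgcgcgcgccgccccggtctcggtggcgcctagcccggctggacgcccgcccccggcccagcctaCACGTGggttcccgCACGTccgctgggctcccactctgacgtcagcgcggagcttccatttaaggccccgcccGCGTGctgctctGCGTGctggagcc
The Bnip3 window held 5 matches, the Pdk1 and Pgk1 windows 2 each and the Ldha window 7, and 8.93% of all windows held at least 3. The Vegfa window had 0. A further window each of Vegfa, Ldha and Pdk1, at other starts and not printed, held 2, 2 and 0 matches. At least 1 window of Bnip3, Pdk1 and Pgk1, which were called between the histones, holds a match, as do windows of Slc2a1 and Ldha, which were not called. The 10 genes were picked as HIF pathway genes, so shares above those of all windows are no separate support. GC content was 40.3% to 86.0% in the 12 windows, and the windows of all genes were not matched for it. A match describes letters in the window only.

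The wider pathway was read from lists of 82 further genes, of which 74 were tested. Between the classes 8 rose and 2 fell, or 13.5%, close to the 13.3% over all genes. Between the histones 11 rose and 6 fell, or 23.0%, beside 11.0%. The class count was 16 without H3.1 K36M, 22 in the H3.3 libraries only, 19 with histone as a covariate and 25 with array weights. The histone count was 0 without H3.1 K36M, 6 without H3.3 WT, 6 without H3.3 K36I, 8 without H3.3 K36M and 9 without H3.3 K36L. The counts over all genes, given above, also rose with the covariate and array weights and fell in these histone settings. For the H3.3 libraries only, and for the class comparison without H3.1 K36M, the count over all genes is not given here. No change in these counts is therefore read as particular to the pathway.

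**Figure D4:**
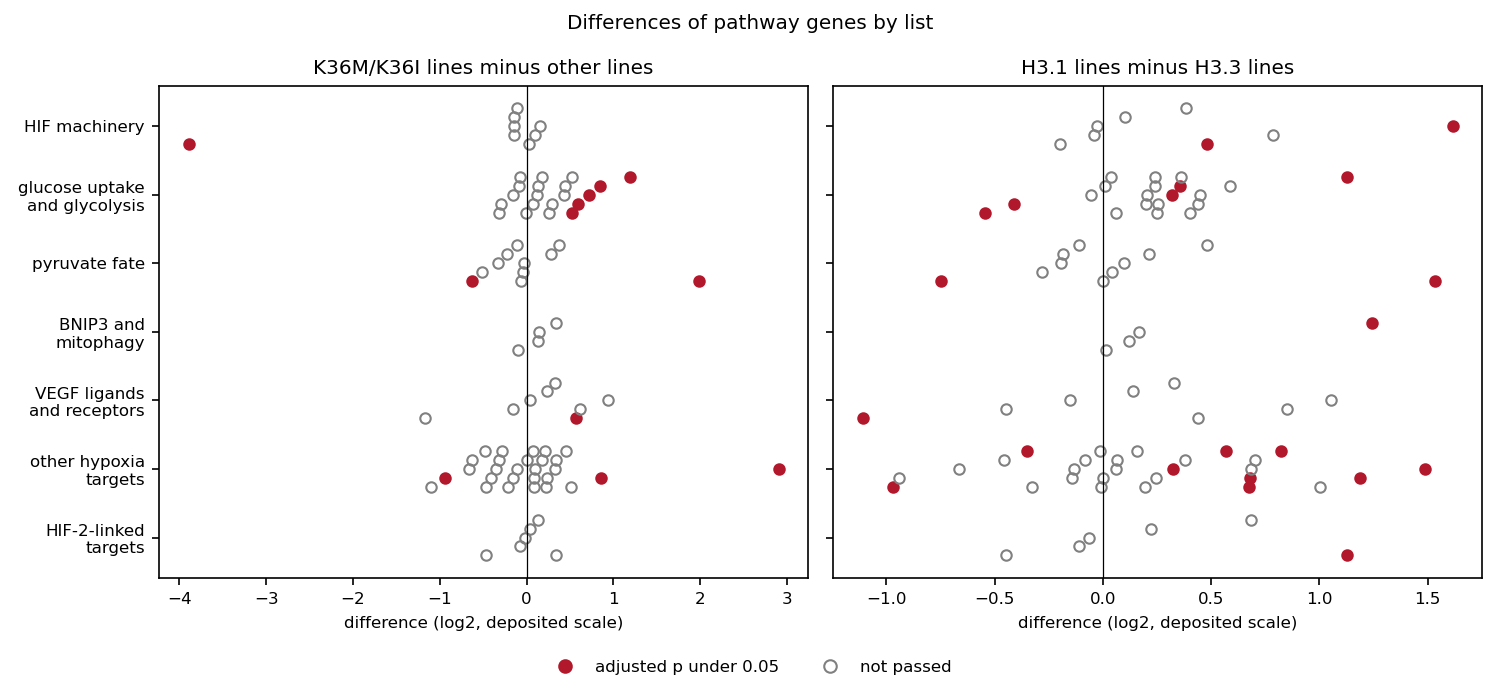
Log2 differences (horizontal axis) of the tested genes of 7 lists (vertical axis, members included, points spread vertically for legibility), K36M and K36I lines minus the other lines on the left and H3.1 minus H3.3 lines on the right, filled red where limma's adjusted p was under 0.05. Of 20 tested glycolysis genes 5 are red on the left, all to the right of 0, and the isolated red point at the far left is Epas1.

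Of 20 tested genes of glucose uptake and glycolysis, 5 rose and 0 fell between the classes by limma and by limma-voom (7 higher and 0 lower at unadjusted p under 0.05). Over all genes tested 6.45% were called higher and 6.82% lower, and the list median was 0.22. Pfkfb4, which makes an activator of phosphofructokinase, rose by 1.19 (SE 0.15, limma adjusted p = 0.00200), with 1892 in H3.3 K36M, 2291 in H3.3 K36I and 1605 in H3.1 K36M against 574 to 907 normalised reads in the other 5. The enolase gene Eno2 rose by 0.84 (SE 0.15), the phosphofructokinase gene Pfkp by 0.72 (SE 0.13), the glucose phosphate isomerase gene Gpi1 by 0.60 (SE 0.11) and the hexokinase gene Hk2 by 0.53 (SE 0.12). All 5 kept their call in each of 15 other settings. Gpi1 averaged 13354 ± 1959 (SD, n = 3) in the K36M and K36I lines and 8753 ± 793 normalised reads (SD, n = 5) in the other 5.

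Between the histones, 3 genes of this list rose and 2 fell, beside 11.0% called over all genes. Pfkl, a phosphofructokinase gene, rose by 1.13 (SE 0.19, limma adjusted p = 0.0153), with 9059 normalised reads in the H3.1 K36M line and 9811 in the H3.1 K36R line, against 3489 to 6557 in the 6 H3.3 lines. Pgk1 and Hk1 (0.32, SE 0.08) rose too. The related Pfkm fell by 0.54 (SE 0.11), as did Pfkfb4 by 0.41 (SE 0.10). Each of these calls was lost without H3.1 K36M and in other settings too. Leaving out any of 2 single libraries ended the call of Pfkl, any of 4 that of Pfkm, and any of 6 those of Hk1 and Pfkfb4. The Hk1 call was also lost with no filter on low values, and the Pfkfb4 call with no filter and with limma-voom.

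Of 11 tested genes that set the fate of pyruvate, 1 rose, 1 fell and 9 did not pass between the classes, with a list median of -0.06 and 13.3% called over all genes. Pdk4, a paralogue of Pdk1, rose by 1.99 (SE 0.12, limma adjusted p = 7.05e-05) and Mpc2, a subunit of the mitochondrial pyruvate carrier, fell by 0.63 (SE 0.11, limma adjusted p = 0.00744). Pdk4 had, in normalised reads, 2163 in H3.3 K36M, 2137 in H3.3 K36I and 2702 in H3.1 K36M, against 611 in H3.3 K36A, 494 in H3.3 K36L, 493 in H3.3 K36R, 472 in H3.1 K36R and 439 in H3.3 WT. The classes did not overlap, as in 10.0% of genes tested for higher values in K36M and K36I, whereas those of Pdk1 did. Between the histones Pdk1 rose and the lactate and pyruvate transporter gene Slc16a1 fell by 0.75 (SE 0.15, limma adjusted p = 0.0250). The other 9 genes did not pass between the histones, beside 11.0% called over all genes. The Slc16a1 call was lost when any of 4 single libraries was left out.

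Of 28 tested genes in the list of other hypoxia targets, 2 rose and 1 fell between the classes, beside 13.3% called over all genes. Angptl4, a secreted inhibitor of lipoprotein lipase, rose by 2.90 (SE 0.45, limma adjusted p = 0.00444), with 2087 in H3.3 K36M, 4380.3 in H3.3 K36I and 1779.6 in H3.1 K36M against 115 to 531 normalised reads in the other 5. Ero1l, an oxidase of the endoplasmic reticulum, rose by 0.86 (SE 0.10, limma adjusted p = 0.00137) and averaged 11689 ± 691 (SD, n = 3) in the K36M and K36I lines and 6398 ± 754 normalised reads (SD, n = 5) in the other 5. Cited2, a negative regulator of HIF that competes for its coactivator, fell by 0.94 (SE 0.22, limma adjusted p = 0.0250) and averaged 586 ± 117 (SD, n = 3) in the K36M and K36I lines and 1258 ± 401 normalised reads (SD, n = 5) in the other 5. Its call was lost without H3.3 WT, H3.3 K36M, H3.3 K36R or H3.1 K36M, with adjusted p up to 0.102.

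Between the histones 7 of these 28 rose and 2 fell, beside 11.0% called over all genes. Among the larger were the adenylate kinase gene Ak4, which rose by 1.49 (SE 0.34), the collagen lysyl hydroxylase gene Plod2 (1.19, SE 0.25) and the mitochondrial gene Fam162a (0.82, SE 0.12). The lipoprotein receptor gene Vldlr fell by 0.97 (SE 0.18). Plod2 had 5453 normalised reads in the H3.1 K36M line and 5751 in the H3.1 K36R line, against 1222 to 3929 in the 6 H3.3 lines. Ak4 had 1334 normalised reads in the H3.1 K36M line and 1302 in the H3.1 K36R line, against 231 to 964 in the 6 H3.3 lines. Leaving out any of 7 of the 8 single libraries ended the Ak4 call, any of 4 the Plod2 call, any of 3 the Vldlr call, and H3.1 K36M alone the Fam162a call.

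Of 8 tested VEGF ligands and receptors, Vegfa alone passed between the classes, beside 13.3% called over all genes. Nrp1, a VEGF coreceptor, had a difference of -1.17 (SE 0.38, limma adjusted p = 0.0776) and did not pass. Between the histones the placental growth factor gene Pgf fell by 1.11 (SE 0.20, limma adjusted p = 0.0164), with 71.0 normalised reads in the H3.1 K36M line and 61.2 in the H3.1 K36R line, against 136 to 466 in the 6 H3.3 lines. Pgf alone of the 8 was called between the histones, beside 11.0% called over all genes. Without H3.1 K36M its call was lost.

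Of 6 tested genes linked to HIF-2 in other cells, 0 were called between the classes by limma, 0 by limma-voom and 0 at unadjusted p under 0.05, beside 13.3% called by limma over all genes. So short a list has little room to fall below that share. The list median was 0.01. The cyclin D1 gene Ccnd1 had a difference of 0.34 (SE 0.19, limma adjusted p = 0.274). Between the histones the iron transporter gene Slc11a2 rose by 1.13 (SE 0.20, limma adjusted p = 0.0157), with 8342 normalised reads in the H3.1 K36M line and 7013 in the H3.1 K36R line, against 2454 to 4658 in the 6 H3.3 lines. That call too was lost without H3.1 K36M. Of 4 tested genes in the mitophagy list, 0 passed between the classes by limma, by limma-voom or at unadjusted p under 0.05. The share called by limma over all genes was 13.3%, and this list is shorter still. Bnip3 (0.34, SE 0.39) and Bnip3l (0.15, SE 0.08) had the largest differences. Bnip3 alone rose between the histones, where 11.0% of all genes were called.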

How the data were processed

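RNA was measured by RNA-seq in 8 lines, 1 library each, extracted with Trizol and made into libraries by the Illumina TruSeq protocol, per the labels' protocols. Trimmomatic 0.32, featureCounts 1.4.4, STAR 2.3.0e and DESeq2 appear in the submitters' processing notes, with the build mm10. The sources used here do not give their settings, the annotation or the strand setting. The deposited values are log2 values that the authors variance-stabilised, per the labels (vst). The fit of the inverse transformation showed 1 size factor per library and no length correction.

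The lowest value, 5.95, stands for 0 reads. Inverting the transformation gave whole reads for 100% of values within 0.001 reads. A gene was tested when its mean exceeded the lowest value by at least 1 (near 31.0 normalised reads), which left 14215 of 31276. Tests used limma 3.58.1 (R 4.3.3), two-sided, with the prior variance trended on intensity, and Benjamini-Hochberg adjustment over all tested genes at 0.05, and were tested on simulated data. GENCODE M21 (GRCm38, which is the mm10 assembly) gave exon lengths and positions. Endothelial, leukocyte, epithelial and mesenchymal markers were read beside them. The 10 genes, the lists and the comparisons were chosen with earlier results of these data known. Named list genes are up to 4 called genes with the largest differences, or the 2 largest where none passed. Of these, 1 gene is not reported here. Gpi1, Pfkp, Eno2 and Pfkfb4 came from that rule. Hk2, Hk1, Vhl and Nrp1 were named after their values were seen. Alternatives were equal library medians, other filters, limma-voom on recovered reads, a histone covariate, array weights and libraries left out.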

Additional observations from a re-analysis of the deposited data

How the results depend on the processing

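No paired analysis was possible because each transgene has 1 library and every library carries replicate number 1. The substitution does match the K36M and K36R lines across the histones, and the comparison in those 4 libraries with substitution as a term is given below as an alternative. For the class comparison, 277 of 285 values of 19 genes (the 9 tested HIF pathway genes and the 10 further pathway genes called) kept direction and side of the threshold, 4 no longer passed (all Cited2) and 4 uncalled differences changed sign. Those were Hif1a, Egln1 and Bnip3 without H3.1 K36M (over libraries left out, -0.085 to 0.198, -0.038 to 0.311 and -0.079 to 0.584), and Hif1a (-0.00066) in the H3.3 libraries only. For the histone comparison, 112 of 338 values of 26 genes no longer passed, 1 newly passed and 0 changed sign. Over all genes, 2959 were called between the classes with histone as a covariate and 4074 with array weights, and 1021 to 2084 when each library was left out. The further pathway genes called were 19, 25 and 22 with histone as a covariate, with array weights and in the H3.3 libraries only, and 9 to 16 when each library was left out. Between the histones 12 genes, 0 of them further pathway genes, were called in the K36M and K36R libraries only, and leaving out each library gave 183 to 1934 genes, with 0 to 21 further pathway genes. The test of the class difference between histones called 798 genes with no filter on low values, and could not be fitted without either H3.1 library. The cause was not tested. Among the 10 genes depth limits the statement on Egln3, and with 1 library per transgene a substitution's own spread is unknown.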
